A study of Mus musculus with 7 samples.

Results

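A set of 9 mouse genes that govern protein breakdown in muscle was followed in the apex of the heart: the ubiquitin ligase genes Trim63, Fbxo32, Fbxo30, Fbxo31 and Asb2, and the regulators Foxo1, Foxo3, Klf15 and Mstn. They were chosen by symbol, and their 13 probes were found through the transcript each probe is assigned to, among 55681 probes for 21154 named genes. The 3 KO hearts came from male C57BL/6 mice homozygous for p38α flox/flox, with loxP sites around exons 2 and 3 of the p38α gene Mapk14, and heterozygous for α-MHC mercremer, a tamoxifen-activated Cre made in cardiomyocytes. The 4 control hearts came from male C57BL/6 mice homozygous for p38α flox/flox without the Cre transgene. Both groups received 500 µg of hydroxytamoxifen per day for 10 days from 6 weeks of age, and then angiotensin II, which raises blood pressure, from an osmotic minipump (1.5 mg/kg per day over 48 hours) before sampling at 3 months. The design text counts 4 KO hearts, and the other one was not analysed here. Other cells of the KO heart keep Mapk14, and since only the KO group carried Cre, the deletion and the Cre protein cannot be told apart. Whole apex RNA was measured, so fewer cardiomyocytes and less RNA per cardiomyocyte cannot be told apart either.

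Muscle disposes of its proteins largely by tagging them with ubiquitin for the proteasome, and a ligase chooses which protein is tagged. FoxO transcription factors switch on the ligase genes Fbxo32 and Trim63, while insulin and IGF-1 acting through Akt keep FoxO proteins out of the nucleus. Klf15, a transcription factor induced by glucocorticoids, and myostatin, a TGFβ-family hormone that signals through activin receptors and Smad proteins, also favour muscle loss, and p38 itself is known as an activator of Fbxo32 expression in muscle cells exposed to TNF. In the heart the same ligases remove worn sarcomere proteins and restrain hypertrophy.

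RefSeq promoter windows of GRCm38.p6, from 250 bases before to 50 bases after a gene's start, were on hand for 8 of the 9 genes, in 9 windows because Asb2 has 2. They were searched on both strands for GTAAACA (FoxO), GNACA followed after 3 bases by TGTNC (glucocorticoid receptor), CTA followed after 4 bases by TAG (MEF2) and CANNTG (E-box). Trim63, Klf15 and Asb2 are shown for the regulators that are known to act on this family and for the genes whose levels are set beside each other later. The 250 bases before the start are printed 5′ to 3′ on the gene's strand, with matches in capitals: Trim63 lies at chr4:134314870-134315119 (plus strand), Klf15 at chr6:90462326-90462575 (plus strand) and the upstream Asb2 window at chr12:103356002-103356251 (minus strand).
Trim63: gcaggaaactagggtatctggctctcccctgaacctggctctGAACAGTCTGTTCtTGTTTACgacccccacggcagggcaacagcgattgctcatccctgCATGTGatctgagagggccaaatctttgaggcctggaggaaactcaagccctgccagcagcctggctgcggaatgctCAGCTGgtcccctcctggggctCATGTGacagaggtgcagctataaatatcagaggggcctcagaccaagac
Klf15: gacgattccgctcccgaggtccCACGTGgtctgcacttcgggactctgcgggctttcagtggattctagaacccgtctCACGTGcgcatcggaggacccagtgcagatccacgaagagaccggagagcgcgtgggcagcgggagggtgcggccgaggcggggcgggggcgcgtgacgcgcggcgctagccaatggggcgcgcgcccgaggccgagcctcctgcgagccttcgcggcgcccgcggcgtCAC
Asb2: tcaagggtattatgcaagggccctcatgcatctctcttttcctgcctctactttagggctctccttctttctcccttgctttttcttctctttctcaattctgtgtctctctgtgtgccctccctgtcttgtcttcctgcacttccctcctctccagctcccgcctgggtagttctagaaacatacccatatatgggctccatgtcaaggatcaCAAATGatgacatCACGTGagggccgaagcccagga
Trim63 held the only FoxO and the only glucocorticoid receptor match among the 9 windows. The receptor match ran from -208 to -196, and the FoxO match, read on the opposite strand, ran from -194 to -188, with 1 base between them. Of 32851 promoter windows, 3.65% held the FoxO letters, 0.475% the glucocorticoid receptor letters and 5 windows (0.0152%) both. E-box letters were in 6 of the 9 windows and in 72.3% of all windows, and MEF2 letters in 0 of the 9 and in 3.69% of all. Klf15 carried the E-box form CACGTG, known as the site of clock and Myc-family factors, 3 times, the last running past the start; this form was looked for after the matches were seen, and 29 of all windows (0.0883%) held it 3 times or more. The CACGTG of Asb2 began at -23. No motif overlapped another of a different kind in the windows printed.

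All arrays lay on 1 slide, with 46.0% to 49.7% of probes well above background. Levels are given as multiples of the array's 75th percentile signal over non-control spots, or as log2 of that multiple, and differences are KO minus control on the log2 scale with the standard error (SE) of the limma fit. Adjusted p-values are limma's, Benjamini-Hochberg adjusted over all 22344 features tested, with a threshold of 0.05. Across all features 15.0% fell and 10.2% rose in KO hearts, and this count of 5640 was 69 without KO heart 1, 1138 without KO heart 2, 3266 without control heart 1, 2699 without control heart 3 and 2217 without control heart 4. The brighter Mapk14 probe had a log2 level of 3.74 ± 0.03 in KO hearts and 3.51 ± 0.11 in control hearts (SD, n = 3 and 4), a difference that did not pass (adjusted p = 0.202), and where the probe lies relative to the deleted exons was not known. An array probe of Esr1, whose ligand-binding part is in MerCreMer, was well above background on 3 of 3 KO and 0 of 4 control arrays, at 0.566, 1.05 and 22.6 times the 75th percentile in KO hearts, against 0.0138, 0.0241, 0.0153 and 0.0173 times in control hearts. KO heart 3 stood far above the other KO hearts on this probe, and 2 further probes for Esr1 stayed near background in all 7 hearts.

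Asb2 and Fbxo32 fell in KO hearts, and none of the 9 genes rose. A probe bright enough to test was on hand for 7 of the genes, and 2 of these 7 fell, against 15.0% of all features. The other 5 tested genes did not pass. At an unadjusted p under 0.05, 5 of the 7 were lower and 0 higher, with no share of all features at that cutoff to set beside them. The count of 2 was 0 without KO heart 1, 5 without control heart 2, 3 without KO heart 3, and 1 without KO heart 2 or control heart 1, 3 or 4. The median difference of the 7 was -0.76, beside -0.06 over all features. Each of the 7 differences was below 0 with the scaling used here. Fbxo30 was above 0 with median centring, with means over probes, without KO heart 3 and without control heart 1, and Fbxo30, Trim63 and Foxo1 were above 0 relative to cardiomyocyte markers. Without KO heart 3, which stood apart on the Esr1 probe, Asb2 was at -1.92, Fbxo32 at -1.43 and Klf15 at -1.20, and all 3 passed, while Fbxo31 (-0.70), Foxo1 (-0.43), Trim63 (-0.39) and Fbxo30 (0.032) did not. The groups did not overlap for 3 of the 7, each lower in KO, beside 21.4% of all features with KO below control in every heart.

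**Figure D1:**
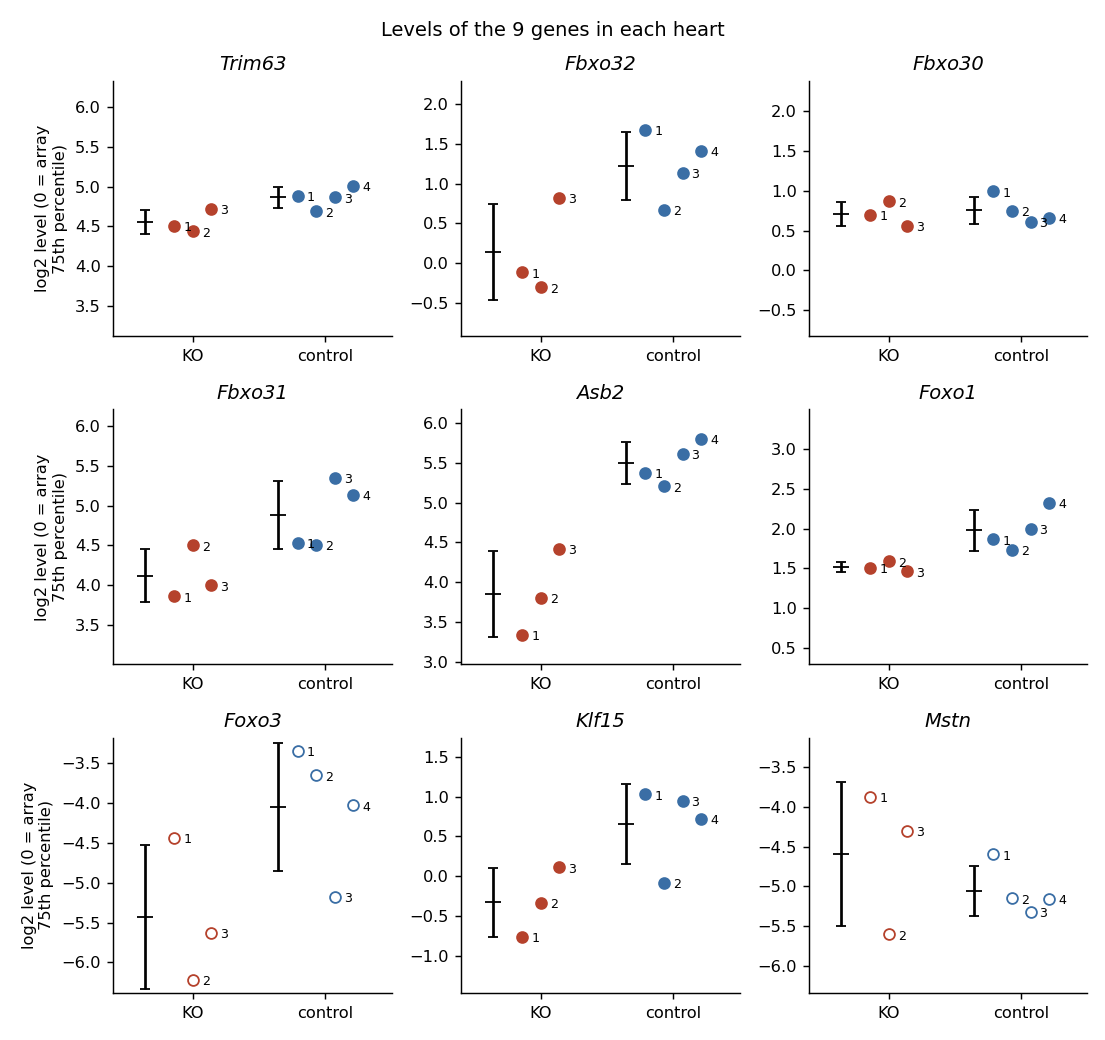
Log2 level of each gene (0 is the array's 75th percentile signal) in 3 KO hearts (red, left) and 4 control hearts (blue, right), numbered by replicate, with mean and SD as black bars and every panel 3.2 log2 units tall. Open symbols mark genes below the brightness filter; Asb2 separates the groups by the widest gap, and Fbxo32 and Klf15 overlap through KO heart 3 and control heart 2.

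Asb2 encodes the substrate-binding subunit of a cullin-5 ligase that marks filamins, and desmin in the developing heart, for breakdown. Its signal was 10.1, 14.0 and 21.4 times the 75th percentile in KO hearts, against 41.4, 36.9, 48.8 and 55.7 times in control hearts. Every KO heart lay below every control heart, KO heart 3 coming nearest to the controls. On the log2 scale the means were 3.85 ± 0.54 in KO and 5.50 ± 0.26 in control hearts (SD, n = 3 and 4), a difference of -1.64 ± 0.26 (SE, adjusted p = 0.0125), which is 32.0% of the control level. An exact two-sided permutation test gave p = 0.0286, the smallest that 35 splits of 7 hearts allow. Without KO heart 1 the difference was -1.38 and did not pass (adjusted p = 0.065). Within the slide rows it was -1.95 (1 KO and 2 control hearts) and -1.59 (2 of each). The rows were inferred from array positions, and the labels do not call them a batch.

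Fbxo32 encodes atrogin-1, the F-box protein first found as a marker of wasting muscle. Its signal, averaged over 10 spots, was 0.926, 0.813 and 1.77 times the 75th percentile in KO hearts, against 3.19, 1.59, 2.20 and 2.66 times in control hearts. KO hearts 1 and 2 lay below all 4 controls, while KO heart 3 lay above control heart 2. The difference was -1.08 ± 0.33 (SE, adjusted p = 0.0451), 47.1% of the control level, with log2 means of 0.14 ± 0.60 in KO and 1.22 ± 0.43 in control hearts (SD, n = 3 and 4; exact permutation p = 0.0857). The call did not hold without KO heart 1 (adjusted p = 0.16), KO heart 2 (0.13), control heart 1 (0.0932), control heart 3 (0.084) or control heart 4 (0.104). Within the slide rows the difference was -1.28 and -1.01.

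Trim63, which encodes the RING ligase MuRF1 of the sarcomere, did not pass. Its brighter probe read 22.7, 21.7 and 26.3 times the 75th percentile in KO hearts, against 29.6, 25.8, 29.2 and 32.3 times in control hearts. KO heart 3 lay just above control heart 2, and the other KO hearts lay below all controls. The difference was -0.31 ± 0.14 (SE, adjusted p = 0.126), and the dimmer probe was at -0.25 ± 0.15. Trim63 and Fbxo32 are both textbook FoxO targets, and the FoxO letters printed before are those of the Trim63 promoter; the Fbxo32 window was not used here.

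Fbxo31 encodes an F-box protein best known for directing the breakdown of cyclin D1 after DNA damage, and was added to the muscle ligases as an atrophy-induced gene. Its brighter probe read 14.5, 22.6 and 16.0 times the 75th percentile in KO hearts, against 23.2, 22.7, 40.8 and 35.1 times in control hearts. The groups did not overlap, but KO heart 2 and control heart 2 were nearly level. That probe missed the threshold at -0.76 ± 0.26 (SE, adjusted p = 0.0664). The dimmer probe fell by 0.64 ± 0.19 (adjusted p = 0.0441 over all 26576 probes kept, of which 15.1% fell and 10.4% rose), with 11.6, 12.5 and 15.0 times in KO hearts, against 19.7, 15.3, 24.8 and 22.3 times in control hearts. The 2 probes thus lay on either side of the threshold with differences of similar size.

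Fbxo30, also called MUSA1, encodes an F-box protein that BMP signalling holds down in muscle. The brighter probe read 1.62, 1.83 and 1.47 times the 75th percentile in KO hearts, against 1.99, 1.68, 1.53 and 1.58 times in control hearts, a difference of -0.04 ± 0.15 (SE, adjusted p = 0.841). The dimmer probe read 1.003, 0.907 and 0.708 times in KO hearts, against 0.702, 0.679, 0.528 and 0.517 times in control hearts, each KO heart above each control, though at 0.52 ± 0.18 (SE) it missed the threshold (adjusted p = 0.0688). The log2 gap between the probes was 0.92 ± 0.20 in KO and 1.49 ± 0.13 in control hearts (SD, n = 3 and 4), without overlap (exact two-sided permutation p = 0.0286, the smallest possible, and 0.114 after Benjamini-Hochberg adjustment over the 4 probe pairs compared). For Trim63, Fbxo31 and Foxo1 the gap differed between the groups by -0.06, -0.12 and 0.02, with overlap. Both Fbxo30 probes are assigned to the same transcript, and their places in it are not given in the sources used here.

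**Figure D2:**
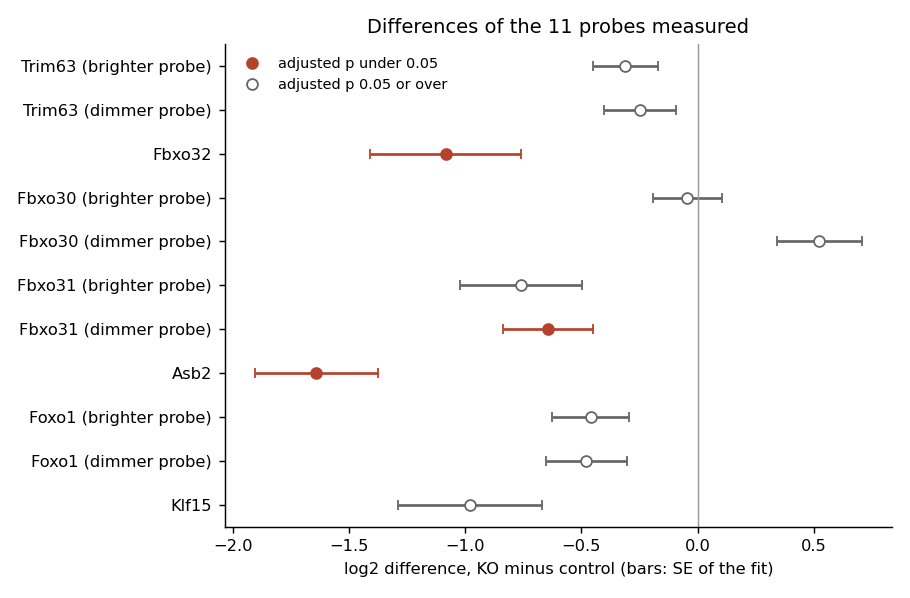
Log2 difference, KO minus control, of the 11 probes kept for the 7 measured genes, with the SE of the fit as bars and filled red symbols for adjusted p under 0.05 over all kept probes. Of these probes 3 fell and 0 rose; the probes of Trim63, Fbxo31 and Foxo1 lie near each other, and those of Fbxo30 lie apart.

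Foxo1 encodes the FoxO factor that drives the atrophy programme with Foxo3. Its brighter probe read 2.84, 3.01 and 2.76 times the 75th percentile in KO hearts, against 3.64, 3.32, 3.99 and 5.02 times in control hearts. All KO hearts lay below all controls and were close to one another. The difference of -0.46 ± 0.16 (SE) missed the threshold (adjusted p = 0.0733, exact permutation p = 0.0571), and the dimmer probe was at -0.48 ± 0.17. Without control heart 2 the brighter probe passed at -0.54 (adjusted p = 0.0436).

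Klf15 read 0.592, 0.796 and 1.08 times the 75th percentile in KO hearts, against 2.04, 0.947, 1.93 and 1.65 times in control hearts. Control heart 2 lay below KO heart 3, and the other controls lay above all KO hearts. The difference of -0.98 ± 0.31 (SE) narrowly missed the threshold (adjusted p = 0.0523), at 50.7% of the control level. It passed without KO heart 3 (-1.20, adjusted p = 0.0409) and without control heart 2 (-1.22, adjusted p = 0.0129).

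Foxo3 and Mstn were too dim to test. The 1 Foxo3 probe was well above background on 0 of 3 KO arrays and 2 of 4 control arrays, at 0.0461, 0.0134 and 0.0202 times the 75th percentile in KO hearts, against 0.0982, 0.0794, 0.0276 and 0.0612 times in control hearts. The groups overlapped, no fold is given because 2 of the 4 control arrays were not well above background either, and without the brightness filter its adjusted p was 0.196. Mstn read 0.0683, 0.0206 and 0.0507 times in KO hearts, against 0.0412, 0.0282, 0.0250 and 0.0281 times in control hearts. It was well above background in KO heart 1 alone, so no fold is given, and without the filter its adjusted p was 0.59. These readings do not show whether either transcript is absent, since each rests on 1 dim probe.

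Control heart 2 was the lowest control for 6 of the 7 tested genes, Fbxo30 being the exception. The KO hearts had no such shared order: KO heart 3 was highest for 4 genes, namely Trim63, Fbxo32, Asb2 and Klf15, and KO heart 2 for the other 3, and the lowest was KO heart 1 for 3 genes and KO hearts 2 and 3 for 2 each. The mean log2 level of 10 cardiomyocyte markers was also lowest among controls in heart 2 and highest among KO hearts in heart 3, at 8.02, 8.22 and 8.38 in KO hearts 1 to 3, against 8.85, 8.57, 8.99 and 8.86 in control hearts 1 to 4. The mean of these markers differed by -0.61 between the groups without overlap, and the median of their differences was -0.41. Of the 10, 4 fell (40.0%, beside 15.0% of all features) and 0 rose (beside 10.2%). At an unadjusted p under 0.05, 6 fell and 0 rose, with no share of all features at that cutoff to set beside them. The markers ranged from Pln, the phospholamban gene, at -2.34 to Nppa at 0.55. Their summed signal was 5465 to 6226 times the 75th percentile in KO hearts, against 6189 to 8055 times in control hearts. When every heart was scaled to the mean of these markers, a setting chosen after seeing the data that by its construction adds 0.61 to every difference, Asb2 still fell at -1.03 (adjusted p = 0.00837). Fbxo32 was then at -0.47 (adjusted p = 0.169), Klf15 at -0.36, Fbxo31 at -0.15, Foxo1 at 0.15, Trim63 at 0.30 and Fbxo30 at 0.57, and none of these 6 passed. With that scaling 92.5% of 11461 calls were higher in KO, beside 40.5% of 5640.

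**Figure D3:**
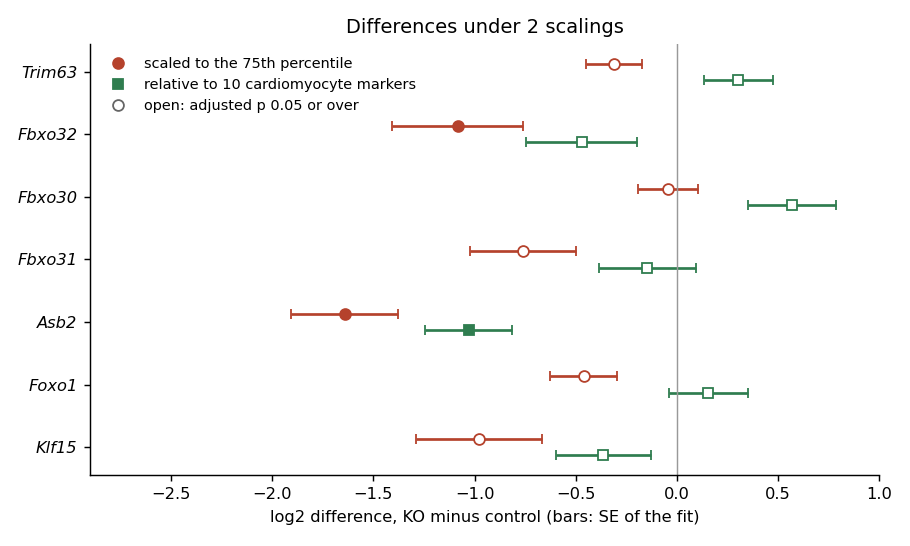
Log2 difference, KO minus control, of the 7 measured genes with the SE of the fit, scaled to the array's 75th percentile (red circles) or to the mean of 10 cardiomyocyte markers (green squares), filled for adjusted p under 0.05. Asb2 is filled in both, at -1.64 and -1.03; Fbxo32 is filled in the first, and Trim63, Fbxo30 and Foxo1 lie to the right of 0 in the second.

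Markers of other cell types were counted too, beside 15.0% of all features that fell and 10.2% that rose. The counts at an unadjusted p have no such share beside them. Of 7 neutrophil markers 5 rose (71.4%) and 0 fell (5 and 0 at an unadjusted p under 0.05). Their summed signal was 101 to 177 in KO hearts, against 114 to 177 in control hearts. Most of that sum was Csf3r, which did not pass (-0.23), while S100a8 and S100a9 rose by 3.33 and 3.14. Cxcr2, Mmp8 and Mmp9 were well above background on 3 KO arrays and 0 control arrays. They passed the brightness filter through the KO hearts alone, so the size of their rise is not given. The 71.4% includes them, so it cannot be set against the 10.2% of all features. Of the markers well above background in both groups, S100a8 and S100a9 rose, and Csf3r and Camp did not pass. All 5 that rose were lowest among KO hearts in heart 3. Of 9 monocyte and macrophage markers 3 rose (33.3%) and 0 fell (6 and 0), at 69.7 to 127, against 44.1 to 73.8. The fibroblast list had 2 falls (22.2%) and 1 rise (11.1%) among 9 (271 to 601, against 388 to 557). The endothelial list had 1 fall (12.5%) among 8 (102 to 132, against 120 to 176). The smooth muscle list had 1 fall (14.3%) among 7 (107 to 120, against 69.0 to 121). Skeletal muscle, which also makes these ligases, left little signal: 6 of its 10 markers, among them Myh1, Myh2, Myh4 and Myog, were below the brightness filter, none of the other 4 passed, and those summed to 1.66 to 2.17, against 1.90 to 3.03. Of the 8 adipocyte markers Adipoq, Plin1 and 4 more were below the filter, and the other 2 did not pass (90.8 to 156, against 115 to 179). All 5 measured hepatocyte markers fell (0.193 to 0.315, against 1.38 to 4.63), and Apoa1 and Apob were below the filter. Of those that fell, Alb, Fgb and Mup19 were well above background on 0 KO arrays and 4 control arrays. They passed the filter through the control hearts alone, as did Ttr, well above background on 2 KO arrays. Only Serpina1a was well above background on every array, so the count of 5 cannot be set against the share of all features. The part of cell makeup in the results was not tested.

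Around the 9 genes, 133 genes on 7 lists were tested, and 25 fell (18.8%) and 14 rose (10.5%), near the 15.0% and 10.2% of all features. This total of 39 was 0 without KO heart 1, 9 without KO heart 2, 24 without control heart 1, 20 without control heart 3 and 20 without control heart 4. The counts at an unadjusted p under 0.05 given for each list have no share of all features at that cutoff beside them.

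Other muscle ubiquitin ligases and deubiquitinases had 7 falls (33.3%, beside 15.0% of all features) and 0 rises (beside 10.2%) among 21 genes, with a median of -0.28. At an unadjusted p under 0.05, 9 were lower and 2 higher. Rnf207, the gene of a cardiac RING protein that acts on the hERG potassium channel, fell by 2.01 ± 0.28 (SE, adjusted p = 0.0118), with 2.13, 3.37 and 4.55 times the 75th percentile in KO hearts, against 11.8, 9.99, 15.8 and 14.7 times in control hearts. Fbxl22, an F-box gene of the cardiac Z-disc, fell by 1.91 ± 0.30 (adjusted p = 0.0124), and Trim72, which encodes the membrane repair protein MG53, by 1.38 ± 0.24 (adjusted p = 0.0131). Ubr2, the gene of an N-end rule ligase, fell by 0.92 ± 0.17. These 4 genes, picked for the lowest p on the list, showed no overlap between groups, which that choice favours. On the whole list 11 of 21 genes showed no overlap. Of all features, 21.4% did so with KO lower and 17.6% with KO higher. Ubr2 did not pass relative to cardiomyocyte markers. Trim55 and Trim54, the MuRF2 and MuRF3 genes, were at -0.76 (adjusted p = 0.0233) and -0.49 (adjusted p = 0.175).

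Among the machinery that the ligases plug into, 1 of 18 cullin-RING partners and ubiquitin genes fell (5.56%, beside 15.0% of all features) and 0 rose (beside 10.2%; 3 and 0 at an unadjusted p under 0.05), with a median of -0.07. The one that fell was Ube2b, a ubiquitin-conjugating enzyme gene known in muscle wasting, at 4.83 ± 0.20 in KO and 5.77 ± 0.27 in control hearts on the log2 scale (SD, n = 3 and 4; adjusted p = 0.0162). Skp1, the adaptor that holds F-box proteins such as atrogin-1, was at -0.22, Rnf7, the RING partner of cullin-5, at -0.33 and the conjugating enzyme gene Ube2d1 at -0.47, and none of the 3 passed. Relative to cardiomyocyte markers Rnf7, Skp1 and Ube2d1 were above 0, and Ube2b did not pass.

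The FoxO family with its insulin and Akt input and its cofactors had 5 falls (20.8%, beside 15.0% of all features) and 2 rises (8.33%, beside 10.2%) among 24 genes, with a median of -0.13. At an unadjusted p under 0.05, 7 were lower and 3 higher. Irs1, the gene of an insulin receptor substrate, fell by 1.43 ± 0.20 (SE, adjusted p = 0.0123), with 1.84, 2.41 and 2.33 times the 75th percentile in KO hearts, against 5.75, 4.39, 6.08 and 7.59 times in control hearts. Akt1, the kinase gene, fell by 0.68 ± 0.14, and Prkaa2, a catalytic subunit gene of AMP-activated kinase, by 0.67 ± 0.12, while Ppargc1a, the mitochondrial coactivator gene whose protein restrains FoxO in muscle, fell by 1.87 ± 0.36. The groups did not overlap for these 4 genes, picked for the lowest p on the list, which that choice favours. On the whole list 9 of 24 genes showed no overlap. Of all features, 21.4% did so with KO lower and 17.6% with KO higher. Akt1 and Prkaa2 did not pass relative to cardiomyocyte markers. The other fall was Foxo6, a FoxO family member, at -1.599 (adjusted p = 0.0295). The rises were Prkaa1, the other AMP-activated kinase catalytic subunit gene, at 0.79 (adjusted p = 0.0193), and Eif4ebp1, which encodes a translation repressor that mTOR inhibits, at 0.55 (adjusted p = 0.0408).

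FoxO targets outside the 9 genes had 6 falls (26.1%, beside 15.0% of all features) and 1 rise (4.35%, beside 10.2%) among 23 (9 and 1 at an unadjusted p under 0.05) and a median of -0.42. Ulk1, the gene of the kinase that starts autophagy, fell by 1.44 ± 0.20 (SE, adjusted p = 0.0118), with 10.6, 11.4 and 13.9 times the 75th percentile in KO hearts, against 33.6, 23.5, 35.8 and 38.1 times in control hearts. Sesn1, a sestrin gene, fell by 1.54 ± 0.32, Sod2, the mitochondrial superoxide dismutase gene, by 0.83 ± 0.20 and the mitophagy receptor gene Bnip3l by 0.51 ± 0.13. Sod2 did not pass relative to cardiomyocyte markers, where Bnip3l was above 0, and Bnip3l did not pass with median centring. The 1 rise was Cdkn1a, the p21 gene, at 1.55 (adjusted p = 0.0347).

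The glucocorticoid receptor list, which holds the textbook targets of Klf15, had 2 falls and 2 rises among 16 genes (12.5% each, beside 15.0% and 10.2% of all features; 5 and 3 at an unadjusted p under 0.05) and a median of -0.35. The falls were both Klf15 targets of amino acid metabolism: Gpt, the alanine aminotransferase gene, by 2.12 ± 0.39 (SE, adjusted p = 0.0146), and Bcat2, the branched-chain aminotransferase gene, by 0.75 ± 0.22 (adjusted p = 0.0448). Gpt read 1.59, 1.65 and 3.75 times the 75th percentile in KO hearts, against 9.50, 5.43, 11.2 and 12.98 times in control hearts. The rises were the receptor's own targets Fkbp5, a co-chaperone gene, by 1.05 ± 0.30 (adjusted p = 0.0403), and Errfi1, an inhibitor gene of EGF receptor signalling, by 1.34 ± 0.29 (adjusted p = 0.019). The groups did not overlap for these 4 genes, picked for the lowest p on the list, which that choice favours. On the whole list 5 of 16 genes showed no overlap. Of all features, 21.4% were without overlap and lower in KO, and 17.6% without overlap and higher. Bcat2 did not pass with median centring or relative to cardiomyocyte markers. No other gene of the list passed. Among the receptor's targets, Per1 (1.22), Ddit4 (0.83), Hif3a (0.60) and Glul (0.05) were above 0. Zbtb16 (-0.06), Tsc22d3 (-0.27) and Klf9 (-0.59) were below 0. The Klf15 targets Prodh and Aass were at -0.43 and -1.13, and the receptor gene Nr3c1 was at -0.42.

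The myostatin and activin list had 6 rises (33.3%, beside 10.2% of all features) and 1 fall (5.56%, beside 15.0%) among 18 genes (7 and 3 at an unadjusted p under 0.05), with a median of 0.27, although Mstn itself was too dim to test. Fstl3, a secreted inhibitor of myostatin and activin, rose by 2.55 ± 0.47 (SE, adjusted p = 0.0147), with 31.6, 32.3 and 16.6 times the 75th percentile in KO hearts, against 4.88, 9.55, 3.40 and 2.36 times in control hearts. The activin subunit genes Inhbb and Inhba rose by 1.87 ± 0.28 and 1.28 ± 0.33, and Tgfbr1, a type I receptor gene, by 0.98 ± 0.20. KO heart 3 was the lowest KO heart for these 4 genes, picked for the lowest p on the list, and still lay above all 4 controls for each. The choice by p favours such a gap. On the whole list 10 of 18 genes showed no overlap. Of all features, 17.6% were without overlap and higher in KO, and 21.4% without overlap and lower. The other rises were Fst, the follistatin gene, at 1.65 (adjusted p = 0.0327), and Smad7 at 0.65 (adjusted p = 0.0421). The 1 fall was the activin receptor gene Acvr2a, at -0.55 (adjusted p = 0.0324). Acvr2b, another such receptor gene, was at -0.69 and did not pass (adjusted p = 0.0599).

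Transcripts of proteins that the ligases are known to mark had 3 falls and 3 rises among 13 (23.1% each, beside 15.0% and 10.2% of all features; 3 and 4 at an unadjusted p under 0.05) and a median of -0.11. The falls were all in known MuRF1 substrates: Tnni3, cardiac troponin I, by 1.19 ± 0.20 (SE, adjusted p = 0.0126), Mybpc3, the myosin-binding protein C gene, by 1.22 ± 0.21, and Ckm, muscle creatine kinase, by 1.49 ± 0.37. The filamin gene Flnc rose by 1.67 ± 0.38 (adjusted p = 0.0213), with 316, 333 and 136 times the 75th percentile in KO hearts, against 70.9, 126, 58.5 and 65.5 times in control hearts. Flna and Des, which encode filamin A and desmin, targets of the Asb2 ligase, rose by 0.85 (adjusted p = 0.0308) and 0.59 (adjusted p = 0.0489).

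**Figure D4:**
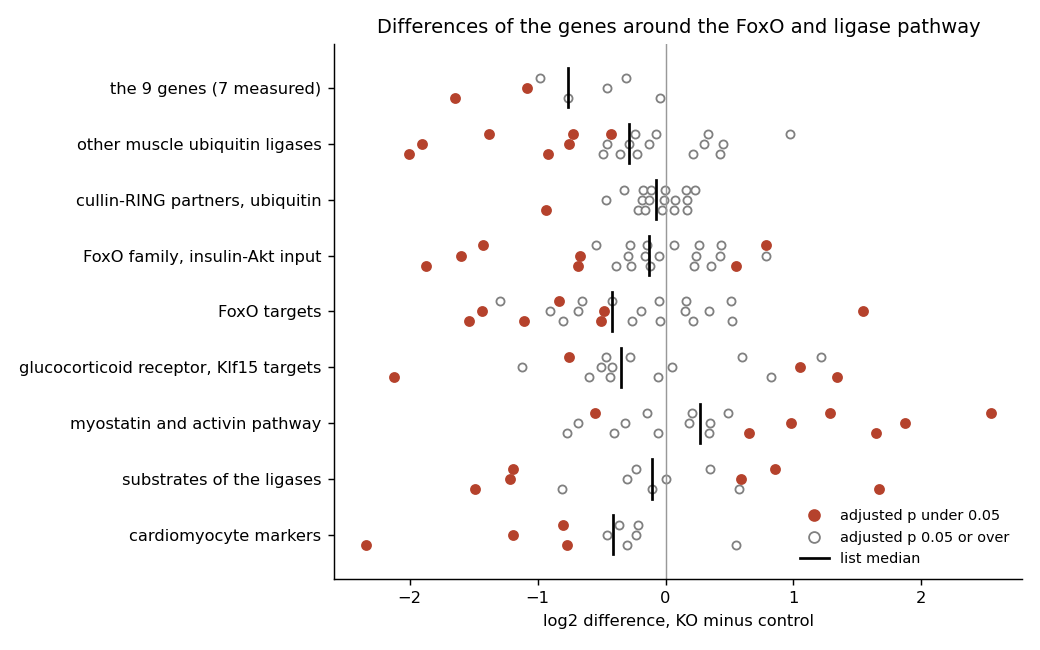
Log2 difference, KO minus control, of each measured gene on 9 lists (the 9 genes, the 7 lists around them and the cardiomyocyte markers), filled red for adjusted p under 0.05, with the list median as a black line. The myostatin and activin list has its median right of 0, at 0.27, and the other lists have theirs left of 0.

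The genes closest to 3 of the regulators and ligases over the 7 hearts, by the mean absolute distance of gene-centred log2 levels among 13085 named genes, were Helz (0.02), Vapb (0.02) and Scand1 (0.03) for Trim63, where the median gene lay at 0.29. For Fbxo32 they were Ston2 (0.10), Acyp1 (0.12) and Etfrf1 (0.13), with a median of 0.61. For Klf15 they were Lifr (0.13), Clmn (0.14) and Zdhhc22 (0.15), with a median of 0.58. Mstn had no such list, since it was below the filter.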

How the data were processed

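Total RNA of 7 heart apices was hybridised to 1-colour Agilent arrays. Per the file headers, the authors read the scans with Feature Extraction 11.0.1.1, and the deposited intensity values are its background-subtracted processed signals, beside median spot and background intensity and flags. The deposited value table holds log2 values; its rows have a median of 0, so each row had its own median taken off, and higher means more signal (r with centred scanner values 0.984 to 0.997), and the scaling between arrays stays unknown. Its column medians were 0 for 5 arrays, -0.00212 for KO heart 2 and 0.0079 for control heart 4.

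Here log2 processed signals were set relative to each array's 75th percentile. Control spots and spots with outlier flags were left out, and spots of a probe were averaged. A probe was kept if at least 3 arrays of 1 group had it well above background (26576 of 55681). Symbols came from the RefSeq transcripts in the files (28026 probes with 1 symbol, 27655 with none, 0 with several), and the brightest kept probe stood for a gene. KO and control were compared with limma 3.58.1 in R 4.3.3 (lmFit, eBayes). The fit was also run on simulated data with means and spreads taken from these hearts, and its outcome is not given here. The replicate numbers are not stated to pair hearts, so the main test used no block. The alternatives were normexp (on median signals), quantile and median scaling, other filters on dim probes, the authors' table, means over probes, other variance models, blocks for replicate number and slide row, each heart left out and, added after seeing the data, scaling to cardiomyocyte markers. Named genes are the 9 genes, the 4 with the lowest p on each of 7 lists, cell type markers and the nearest genes by pattern. Further list members were named after their values were seen (Trim54, Trim55, Cdkn1a, Flna, Des, Foxo6, Prkaa1, Eif4ebp1, Per1, Ddit4, Hif3a, Glul, Zbtb16, Tsc22d3, Klf9, Prodh, Aass, Nr3c1, Fst, Smad7, Acvr2a, Acvr2b). The 9 genes and the lists were chosen with earlier results of these data known. The labels name separate hearts; nothing more says that they came from separate animals. The number of arrays limits precision.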

Additional observations from a re-analysis of the deposited data

Results flagged for a closer look

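Of 39 sets of 4 control hearts checked, 1 probe or gene each, 1 held a heart far from the others: Akt1 read 5.75 on the log2 scale in control heart 2, and the other 3 control hearts lay close together above it, the gap taking 0.951 of the group's range. About 1 in 20 such groups is flagged by chance.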

How the results depend on the processing

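The count of 5640 features called was 1415 without a filter on dim probes, 90 with an unmoderated test, 9 with the replicate number as a block and 11461 relative to cardiomyocyte markers, and 69 to 6970 with 1 heart left out. The 2 calls among the 9 genes became 4 with normexp background correction, 4 with trend and robust variance, 5 with the slide row as a block, 1 with median centring, 1 without the filter, 1 relative to cardiomyocyte markers, 0 with the replicate block and 0 with the unmoderated test, and 0 to 5 with 1 heart left out. The 39 list calls became 12 without the filter, 70 relative to cardiomyocyte markers, 0 with the replicate block, 1 unmoderated and 0 to 46 with 1 heart left out. Asb2 did not pass with the replicate block (-1.54) or unmoderated (-1.64); leaving out hearts gave -1.92 to -1.38. Fbxo32 did not pass with median centring (-0.99), without the filter (-1.08), with the replicate block (-1.02), unmoderated (-1.08) or relative to cardiomyocyte markers (-0.47); leaving out hearts gave -1.43 to -0.87. Fbxo31 passed with means over probes (-0.70), normexp (-0.76), trend (-0.76) and the slide row (-0.86; hearts left out, -0.95 to -0.60). Klf15 passed with a filter on all 7 arrays (-0.98), normexp (-0.82), trend (-0.98) and the slide row (-1.06; hearts left out, -1.22 to -0.76). Foxo1 passed with the slide row (-0.50; hearts left out, -0.54 to -0.34). Scaling to cardiomyocyte markers adds 0.61 to every difference, so by construction values between -0.61 and 0 turn sign. Among the 9 genes and the 4 of lowest p on each list, this was so for Foxo1 (0.15), Trim63 (0.30), Fbxo30 (0.57), Ube2d1 (0.15), Rnf7 (0.29), Skp1 (0.40) and Bnip3l (0.11). Fbxo30 also turned with median centring (0.048), means over probes (0.24), without KO heart 3 (0.032) and without control heart 1 (0.037), and lay between -0.12 and 0.04 with hearts left out; Trim63 lay between -0.39 and -0.25. The causes of the other changes were not tested. Deviations of same-numbered hearts from their group means correlated at 0.18, -0.22 and -0.20. So few hearts cannot settle whether the numbers pair them, and the labels do not state a pairing. In the 150 bases before the start, 3 of the 9 promoter windows kept E-box letters and 0 the FoxO or glucocorticoid receptor letters.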
